A study of Homo sapiens with 4 samples.

Results

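The genes described here are 34 genes of protein folding and quality control in the endoplasmic reticulum (ER), chosen by name from 20457 features listed for each library. They cover targets of the XBP1 and ATF6 arms of the unfolded protein response (UPR) and the machinery of ER-associated degradation, and leave out genes of the ATF4 arm. All 34 symbols were found once in each table, and all 34 passed the minimum of a mean of 1 TPM, the length-normalized share of transcripts scaled to a total of 1000000. RNA was measured by poly(A)-selected sequencing in HEK293 cells, an established human embryonic kidney line. In 2 samples (siControl) the cells were labelled wild type and received a negative control siRNA, and in 2 samples (siCNOT4) they were labelled CNOT4 knockdown and received siRNA against *CNOT4*, each at 10 nM for 72 h. *CNOT4* encodes a RING-type E3 ubiquitin ligase associated with the CCR4-NOT deadenylase complex, and the stated purpose concerned its role in how codon usage affects gene expression. The labels do not say whether the samples of a group were separate cultures, so the p-values measure the spread between these samples, which may be technical.

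The UPR senses unfolded protein in the ER lumen. The kinase and endonuclease IRE1 (gene *ERN1*) splices the mRNA of *XBP1* so that it encodes an active transcription factor, while ATF6 moves to the Golgi, where the proteases S1P (*MBTPS1*) and S2P (*MBTPS2*) release its active part. Both factors raise ER chaperones, disulfide enzymes and the components that return misfolded proteins to the cytosol for degradation. A gene-level TPM does not separate the spliced from the unspliced *XBP1* transcript.

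The best known control elements of UPR genes are shown first, although exact matches to them were found in only part of the genes. In RefSeq promoter windows of 300 bases (GRCh38.p14, 250 bases before the start to 50 after), exact matches on both strands were sought to the ER stress response element ERSE (CCAAT, 9 bases of any kind, CCACG), to ERSE-II (ATTGG, 1 base of any kind, CCACG) and to the UPR element UPRE (TGACGTGG). The letters CCACG are shared by ERSE and ERSE-II, and the reverse complement of UPRE also holds them. The table held 31 of the 34 genes, and *DERL1*, *DERL3* and *PDIA3* were not among them. An ERSE was found for 7 genes, an ERSE-II for 3 and a UPRE for 2, out of 31. Of all 27305 genes in the table, 0.0916%, 0.0696% and 0.927% had a match, and of all 35116 windows 0.0769%, 0.0541% and 0.729%. Each line gives a match with 5 bases on either side, 5′ to 3′ on the strand of the match, with the fixed letters of the element in capitals.
HSPA5 ERSE (chr9:125241386-125241414, minus strand): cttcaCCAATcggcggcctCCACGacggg
HSP90B1 ERSE, distal (chr12:103930211-103930239, plus strand): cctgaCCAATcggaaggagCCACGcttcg
HSP90B1 ERSE, proximal (chr12:103930316-103930344, minus strand): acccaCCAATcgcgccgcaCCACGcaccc
CALR ERSE (chr19:12938379-12938407, minus strand): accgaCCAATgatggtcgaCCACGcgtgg
CANX ERSE (chr5:179698773-179698801, plus strand): cccggCCAATcttcacactCCACGaagaa
PDIA6 ERSE (chr2:10812848-10812876, minus strand): ccggaCCAATgagccgcagCCACGgcttg
CRELD2 ERSE (chr22:49918549-49918577, minus strand): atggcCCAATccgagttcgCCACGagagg
XBP1 ERSE (chr22:28800598-28800626, minus strand): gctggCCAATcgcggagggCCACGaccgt
HERPUD1 ERSE-II (chr16:56932020-56932040, plus strand): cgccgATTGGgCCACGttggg
SDF2L1 ERSE-II (chr22:21642109-21642129, minus strand): ttttgATTGGtCCACGcttcc
HYOU1 ERSE-II, distal (chr11:119057375-119057395, plus strand): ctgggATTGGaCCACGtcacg
HYOU1 ERSE-II, proximal (chr11:119057269-119057289, plus strand): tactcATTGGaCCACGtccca
HYOU1 UPRE (chr11:119057381-119057398, minus strand): ccccgTGACGTGGtccaa
DNAJC10 UPRE (chr2:182716127-182716144, minus strand): taggtTGACGTGGcggtg

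The whole window is printed for *HSPA5*, which encodes BiP, the main HSP70 of the ER and the member most often used as a readout of the UPR. Capitals mark its exact match to ERSE.
HSPA5 (chr9:125241294-125241593, minus strand): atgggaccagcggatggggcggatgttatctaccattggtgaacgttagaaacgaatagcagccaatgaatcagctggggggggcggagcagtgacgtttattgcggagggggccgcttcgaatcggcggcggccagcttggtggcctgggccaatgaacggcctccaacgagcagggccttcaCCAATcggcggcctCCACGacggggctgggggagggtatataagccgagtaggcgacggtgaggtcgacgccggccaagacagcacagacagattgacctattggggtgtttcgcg
Counted from the start, the exact match to ERSE ran from -66 to -48 in *HSPA5* and from -52 to -34 in *XBP1*. Inexact matches were not sought. A match is a description of the letters, and factor binding was not measured.

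**Figure D1:**
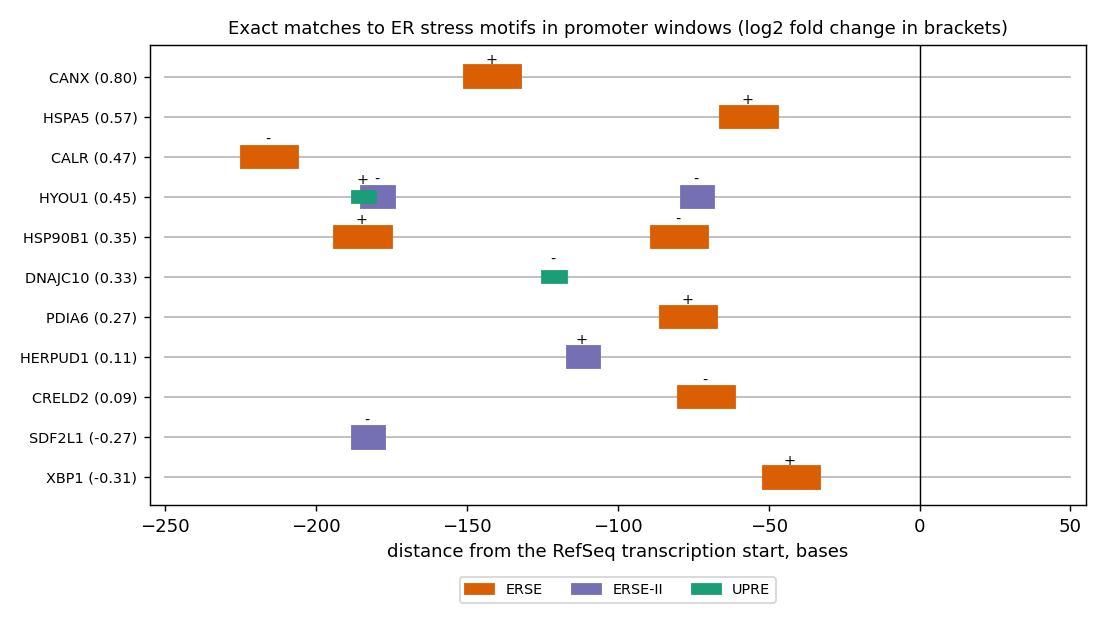
Positions of exact matches to ERSE, ERSE-II and UPRE in the RefSeq promoter windows of the 11 genes that hold one (x axis, bases from the transcription start; + and - give the strand relative to the gene; 1 window for CANX, which has several starts). Genes are ordered by log2 fold change, given in brackets, from CANX (0.80) at the top to XBP1 (-0.31) at the bottom, and the UPRE of HYOU1 overlaps its distal ERSE-II.

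The libraries listed 17531 to 18667 features above 0, and TPM keeps no read totals, so the counting error behind a value is unknown. *CNOT4* itself had a TPM of 6.43 and 4.73 in siControl and 3.38 and 3.81 in siCNOT4 (log2 fold change -0.51, SE 0.26, limma adjusted p 0.184), so the targeted mRNA was lower in both siCNOT4 libraries but did not pass the test in TPM as deposited. Relative to the median of all features it was -1.01, and it was called lower by limma after TMM scaling (-0.95, adjusted p 0.0359), quantile normalization (-1.15, 0.0252) and removal of the trend with length and GC content (-1.27, 0.0154). Of 9 markers of the HEK293 line or of embryonic kidney, 8 had a TPM of at least 1 in every library, and *NEFM* (0.412 to 0.916) did not. Of 10 markers of leukocytes, endothelium, fibroblasts, hepatocytes and epithelium, 7 stayed under 1 TPM in every library. The exceptions were *EPCAM* (238 to 262), *CDH1* (1.17 and 0.635 in siControl, 6.02 and 6.03 in siCNOT4) and *COL1A1* (1.39 and 0.906 against 5.09 and 6.60). Both siCNOT4 libraries were above both siControl libraries in 8 of these 10 markers and below them in *EPCAM* (66.4% and 10.6% of all tested features). Of these 8, all but *CDH1* and *COL1A1* stayed under 1 TPM in every library. All tested features had a mean TPM of at least 1, which 7 of the 10 markers and *NEFM* did not reach. The summed level of the 10 markers was 248 and 264 against 254 and 252. Of the 9 HEK293 markers 5 were above and 2 below (66.4% and 10.6% of all tested features). *VIM* was 1 of the 2 below (917 and 650 against 369 and 354). The sum of the 9 markers was 1993 and 1678 against 1460 and 1471. The part of these marker differences in the results was not tested. The 4 listed markers of secretory cells with a large ER did not exceed 0.397 TPM. In bulk RNA, fewer cells of a type and less RNA per cell cannot be told apart. The siControl libraries differed from each other more than the siCNOT4 libraries did: the SD of the difference in log2(TPM + 1) over the 14208 tested features was 0.48 and 0.20, and siControl replicate 1 was higher than replicate 2 by a median of 0.38.

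Among the 34 genes, *HSPA5* and *DNAJC3* rose and *DERL3* fell in siCNOT4, and the other 31 did not pass the test (limma on log2(TPM + 1), Benjamini-Hochberg adjusted p under 0.05). These 3 calls are 8.82% of the genes, against 12.6% of all 14208 features tested (11.3% higher, 1.3% lower). The adjusted p values of the 3 genes lay just under the threshold, at 0.0493, 0.0494 and 0.0498, and 16 genes had an unadjusted p under 0.05, as had 42% of all features. The median log2 fold change of the 34 genes was 0.44, and that of all tested features was 0.50, so 15 genes lay above that median and 19 below it. The range ran from -1.07 for *DERL3* to 1.33 for *ERN1*. Because most features had a positive fold change in TPM as deposited, values are also shown as differences from that median, or after trimmed-mean (TMM) scaling, which brings the median of all features to 0.0087. After TMM scaling, *DERL3* was the single member called (8.78% of all features were, 4.45% higher and 4.33% lower), and the median of the 34 genes was -0.08. After quantile normalization 6 members were called, 5 higher and 1 lower (15.3% of all features). Without siControl replicate 1 the members called numbered 31 (79.6% of all features), without siControl replicate 2 they numbered 21 (57.5%), and without either siCNOT4 library there were 0. Leaving out 1 library moved the log2 fold change of 21 of the 34 genes by over 1.5 times or changed its sign. Of these genes, 15 moved without siControl replicate 1 and 20 without siControl replicate 2. Without siControl replicate 1 or 2, the log2 fold change was 2.03 or 0.62 for *ERN1*, 1.70 or 0.56 for *EDEM3* and 1.24 or 0.11 for *MBTPS2*. The genes outside the 21 included *HSPA5*, *DNAJC3*, *DERL3*, *XBP1* and *EDEM1*. With 1 library left out, their values still ran from 0.47 to 0.66, 0.93 to 1.52, -1.22 to -0.92, -0.39 to -0.24 and 0.77 to 1.48.

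Together the 34 genes took 0.606% and 0.520% of all TPM in siControl and 0.739% and 0.732% in siCNOT4. Both siCNOT4 libraries were above both siControl libraries in 26 genes, or 76.5% (66.4% of all features), and below them in 2 genes, *XBP1* and *DERL3*, or 5.88% (10.6%). In the 6 remaining genes the groups overlapped. After TMM scaling the counts were 9 above and 9 below, where 35.3% and 34.4% of all features were.

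**Figure D2:**
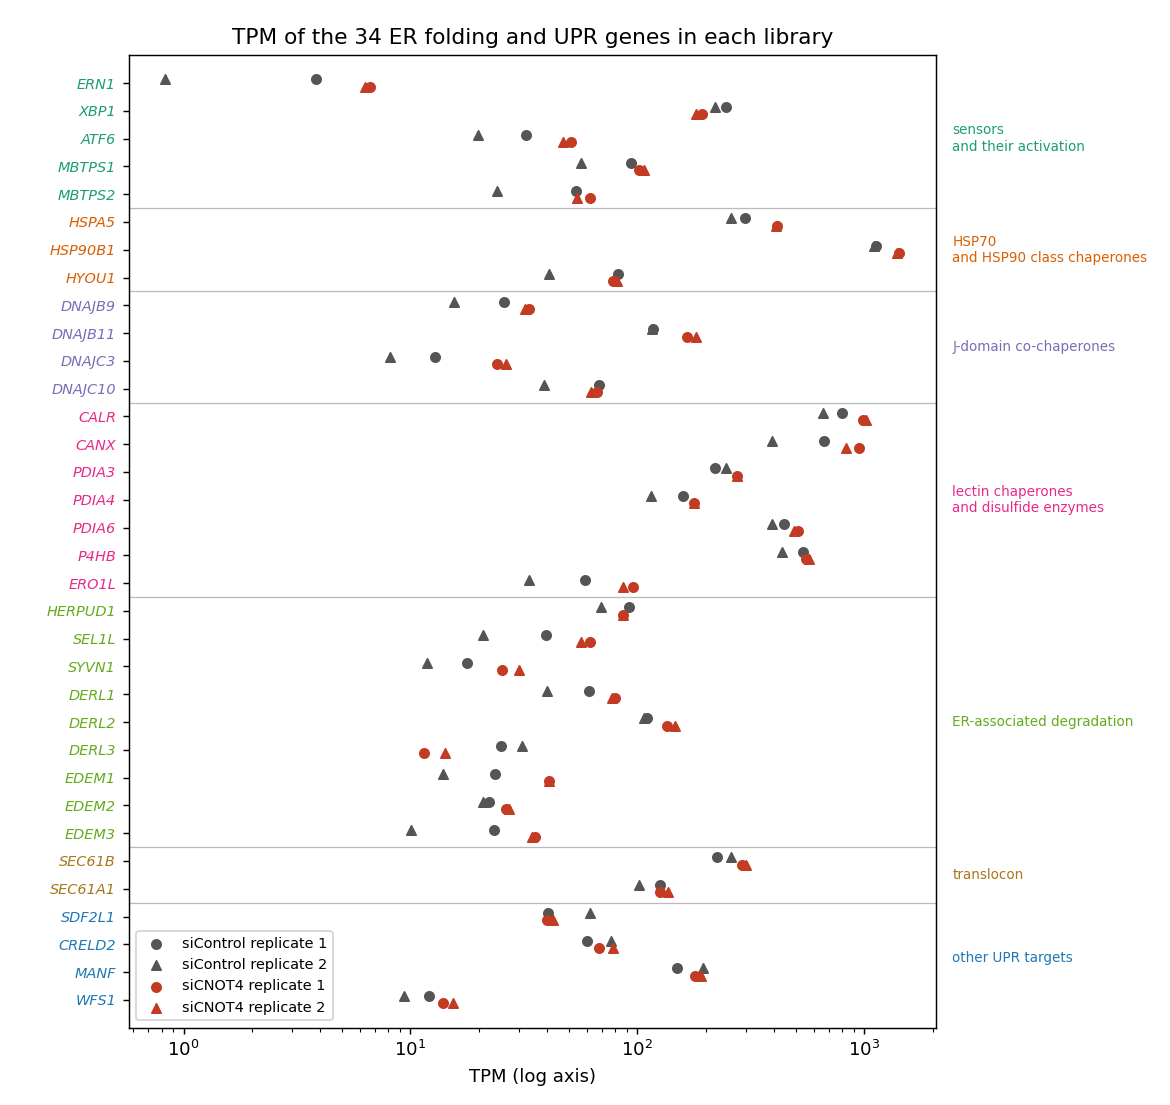
TPM (log axis) of the 34 genes in each library, grouped by role; grey symbols are siControl and red symbols siCNOT4, circles replicate 1 and triangles replicate 2. The red symbols of a gene lie close together, whereas siControl replicate 2 lies left of siControl replicate 1 in 28 genes, with *ERN1* the widest (3.85 and 0.832 TPM).

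None of the 5 sensors and activating proteins passed the test (12.6% of all features did). *ERN1*, the IRE1 sensor, had the lowest TPM of the 34 genes, at 3.85 and 0.832 in siControl and 6.62 and 6.33 in siCNOT4. The groups did not overlap, but the siControl libraries differed by 1.41 on the log2(TPM + 1) scale, more than the 1.33 between groups (SE 0.46, limma adjusted p 0.0868). *XBP1*, the factor whose mRNA IRE1 splices, went the other way, with 245 and 221 in siControl and 193 and 182 in siCNOT4. It was lower in both siCNOT4 libraries, and its log2 fold change was -0.31 (SE 0.14, limma adjusted p 0.149), or -0.81 relative to the median of all features. The adjusted p of *XBP1* was 0.0527 after TMM scaling (log2 fold change -0.86), 0.0605 after quantile normalization (-0.44) and 0.0164 after removal of each library's trend with length and GC content (-0.78). *ATF6*, the Golgi-activated factor, had 32.4 and 19.9 TPM in siControl against 50.8 and 46.9 in siCNOT4 (log2 fold change 0.91, limma adjusted p 0.0688). The ATF6 proteases *MBTPS1* and *MBTPS2* had log2 fold changes of 0.51 and 0.67 (limma adjusted p 0.179 and 0.206). For both proteases the siControl libraries differed by more than the groups, at 0.72 and 1.13.

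Of the HSP70 and HSP90 class chaperones, 1 of 3 passed the test (12.6% of all features did). *HSPA5* had a TPM of 297 and 259 in siControl and 412 and 410 in siCNOT4, or 278 ± 26.3 against 411 ± 1.01 (SD, n = 2 each). Its increase on the log2 scale was 0.57 (SE 0.14, limma adjusted p 0.0493), above the difference of 0.19 between the siControl libraries. That increase exceeded the median of all features by 0.06, and after TMM scaling it was 0.02 (limma adjusted p 0.954). *HSP90B1*, which encodes GRP94, the HSP90 of the ER, was the most abundant of the 34 genes, with 1124 and 1100 TPM in siControl and 1427 and 1400 in siCNOT4 (log2 fold change 0.35, limma adjusted p 0.0798). It was high in both siCNOT4 libraries, but its fold change was below the median of all features by 0.15. *HYOU1*, a large HSP70-related chaperone that acts as a nucleotide exchange factor for BiP, had 82.2 and 41.0 in siControl and 78.1 and 81.1 in siCNOT4, so that siControl replicate 1 stood with the siCNOT4 libraries and replicate 2 apart from them.

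The J-domain proteins stimulate the ATPase of BiP or pass substrates to it. *DNAJC3* (P58IPK) had 12.8 and 8.13 TPM in siControl and 24.1 and 26.4 in siCNOT4, or 10.5 ± 3.31 against 25.3 ± 1.61 (SD, n = 2 each). Both siCNOT4 libraries were higher, by 1.22 on the log2 scale (SE 0.30, limma adjusted p 0.0494), which was 0.72 above the median of all features. After TMM scaling the log2 fold change of *DNAJC3* was 0.71 with a limma adjusted p of 0.0532. *DNAJB9* (ERdj4), a target of XBP1 that restrains IRE1, had 25.8 and 15.5 in siControl and 33.5 and 32.1 in siCNOT4 (log2 fold change 0.69, limma adjusted p 0.129). *DNAJB11* (ERdj3) had 117 and 116 against 166 and 182 (0.57, limma adjusted p 0.0541), with siControl libraries that differed by 0.02. *DNAJC10* (ERdj5), a reductase that also carries a J domain, overlapped between groups, at 67.9 and 38.8 against 66.7 and 62.5 TPM.

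The lectin chaperones and disulfide enzymes handle glycoproteins and disulfide bonds. In all 7 both siCNOT4 libraries were above both siControl libraries (66.4% of all features were). Of the 7 genes, 0 passed the limma test (12.6% of all features did), and 3 had an unadjusted p under 0.05 (42% of all features). *CALR*, the soluble lectin chaperone calreticulin, had 797 and 658 TPM in siControl against 992 and 1021 in siCNOT4 (log2 fold change 0.47, limma adjusted p 0.0665). Its membrane-bound relative *CANX* (calnexin) had 664 and 392 against 946 and 832 (0.80, limma adjusted p 0.0730). *P4HB*, the protein disulfide isomerase PDI, had 539 and 433 against 554 and 572 (0.22, limma adjusted p 0.289), less than the 0.31 between its siControl libraries. *PDIA3*, *PDIA4* and *PDIA6*, isomerases of the same family, had log2 fold changes of 0.24, 0.40 and 0.27. *ERO1L*, the oxidase that recharges PDI, had the largest value of this role, with 58.5 and 33.3 TPM against 95.8 and 86.6 (log2 fold change 1.03, limma adjusted p 0.0599). Relative to the median of all features, *ERO1L* and *CANX* were higher by 0.53 and 0.30, and the other 5 were below it, down to -0.28 for *P4HB*.

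ER-associated degradation recognises misfolded proteins, moves them across the membrane and marks them with ubiquitin. *DERL3*, a Derlin protein of the retrotranslocation machinery, had 25.1 and 31.1 TPM in siControl and 11.5 and 14.2 in siCNOT4, or 28.1 ± 4.26 against 12.9 ± 1.89 (SD, n = 2 each). Both siCNOT4 libraries were lower, and the log2 fold change was -1.07 (SE 0.26, limma adjusted p 0.0498), or -1.57 relative to the median of all features. *DERL3* was also called after TMM scaling (log2 fold change -1.59, limma adjusted p 0.0385), quantile normalization (-1.58, 0.0294) and trend removal (-1.41, 0.0197). With a pseudocount of 0.1 its limma adjusted p was 0.0626. In TPM as deposited its paralogues were higher in both siCNOT4 libraries. *DERL1* had 61.0 and 40.0 against 80.1 and 77.4 (0.66, limma adjusted p 0.0952), and *DERL2* had 110 and 107 against 135 and 146 (0.37, limma adjusted p 0.119). Relative to the median of all features, *DERL1* was 0.16 and *DERL2* -0.13. After TMM scaling, quantile normalization and trend removal, *DERL1* had 0.12, 0.30 and -0.06, and *DERL2* had -0.18, 0.12 and -0.35.

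The mannosidase-like EDEM proteins hand misfolded glycoproteins to degradation. *EDEM1* had 23.6 and 14.0 TPM in siControl and 41.0 and 40.7 in siCNOT4 (log2 fold change 1.13, SE 0.30, limma adjusted p 0.0549). *EDEM3* had 23.4 and 10.1 against 35.5 and 34.3 (1.13, SE 0.39, limma adjusted p 0.0875), and the difference of 1.14 between its siControl libraries was as large as the fold change. *EDEM2* had 22.1 and 20.8 against 26.4 and 27.3 (0.31, limma adjusted p 0.310). Thus *EDEM1* and *EDEM3* lay above the median of all features by 0.62 and 0.63, and *EDEM2* below it by 0.19. The ubiquitin ligase *SYVN1* (HRD1) had 17.7 and 11.8 against 25.4 and 30.2 (0.89, limma adjusted p 0.0770). Its membrane partner *SEL1L* had 39.6 and 21.0 against 62.0 and 56.4 (1.01, limma adjusted p 0.0725). *HERPUD1*, a ubiquitin-like-domain protein of the same ligase complex and a usual ER stress marker, overlapped between groups, with 92.1 and 69.5 TPM against 86.1 and 86.2 (0.11, limma adjusted p 0.691).

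The Sec61 translocon admits new proteins to the ER. *SEC61B*, its beta subunit, had 225 and 259 TPM in siControl and 289 and 300.0 in siCNOT4 (log2 fold change 0.29, limma adjusted p 0.172). The channel subunit *SEC61A1* had 126.3 and 101 against 126.4 and 136 (0.21, limma adjusted p 0.373), so that siControl replicate 1 and siCNOT4 replicate 1 were nearly equal. In the set of other UPR targets, *SDF2L1*, which works with ERdj3 in the BiP cycle, had 40.4 and 62.0 against 40.1 and 42.7 (-0.27, limma adjusted p 0.427), where siControl replicate 2 stood above the other 3 libraries. *CRELD2* and *MANF*, small proteins secreted under ER stress, had log2 fold changes of 0.09 and 0.11 and overlapped between groups. *WFS1* (wolframin), an ER membrane protein, had 12.0 and 9.38 against 14.0 and 15.5 (0.43, limma adjusted p 0.258). The median of these 4 genes was 0.10, or -0.40 relative to all features, the lowest of the 7 roles.

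**Figure D3:**
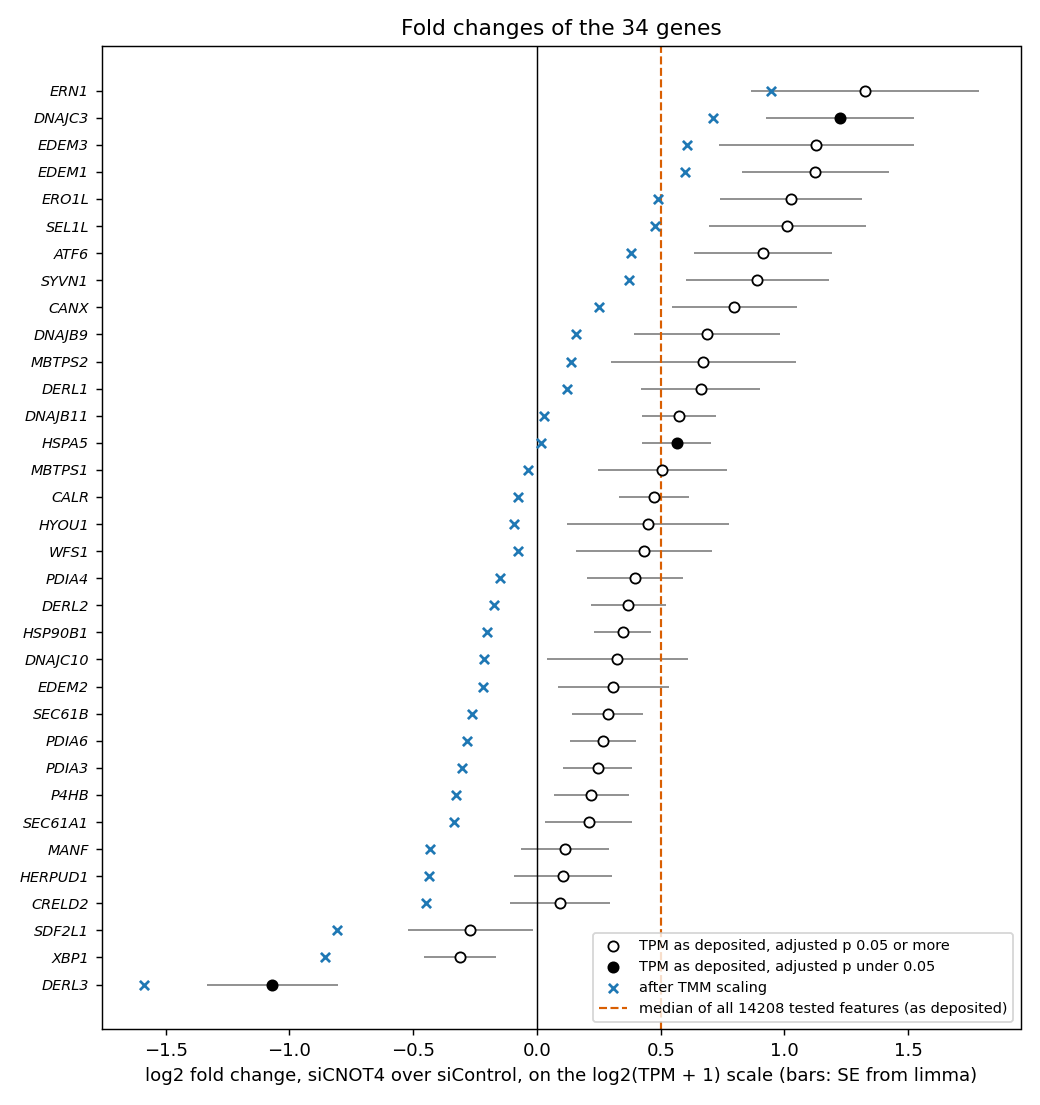
Log2 fold change of siCNOT4 over siControl for the 34 genes (circles, with SE from limma; filled where the adjusted p was under 0.05) and the value after TMM scaling (crosses); the dashed line marks the median of all tested features, 0.50. *HSPA5* (0.57) sits close to that line, *ERN1* (1.33) and *DNAJC3* (1.22) above it, and *SDF2L1* (-0.27), *XBP1* (-0.31) and *DERL3* (-1.07) below 0 before and after scaling.

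The differences among the 34 genes went with transcript length. Across the genes, the log2 fold change had a Spearman rho of 0.746 and a Pearson r of 0.523 with length (n = 34, log2 length for r; all 34 values come from the same 4 libraries, and genes are not independent). The difference between the 2 siControl libraries, which had the same treatment, had a rho of 0.767 and an r of 0.709 with length. Over 13739 matched features the rho values were 0.362 for the fold change and 0.582 for the siControl difference. The 17 longer genes had a median fold change of 0.80 and a median siControl difference of 0.72, and the 17 shorter ones 0.24 and 0.15. Removal of the trend with length and GC content also gave every library the same mean over the matched features. After it the median fold change was 0.09 for the longer genes and -0.17 for the shorter ones. In that fit *DERL3*, *XBP1* and *DNAJC10* were lower and *EDEM1* higher at a limma adjusted p of 0.0197, 0.0164, 0.0202 and 0.0383 (22.5% of matched features were called), whereas *HSPA5* had a value of 0.004. The length used for *DNAJC10* was 20129 nt, that of the GENCODE transcript with its longest coding sequence. The part of length in the group difference was not tested further.

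**Figure D4:**
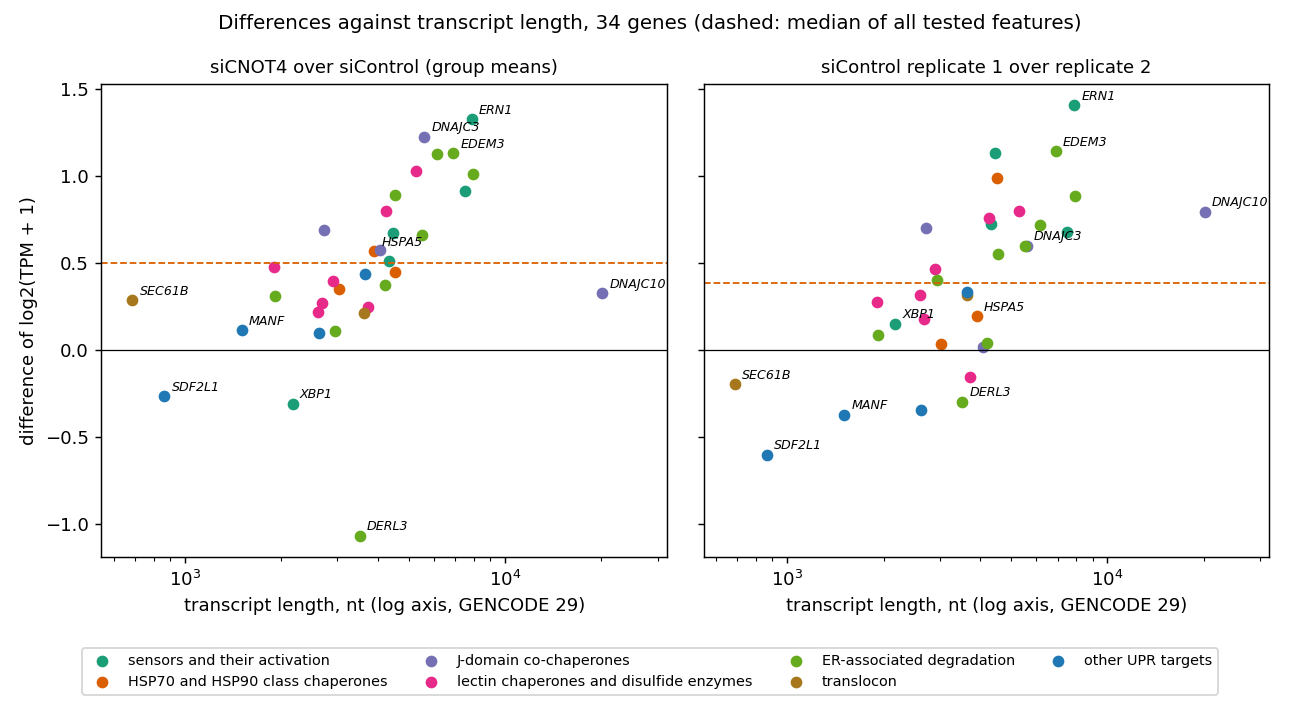
Difference of log2(TPM + 1) against transcript length (log axis) for the 34 genes, coloured by role: on the left siCNOT4 over siControl, on the right siControl replicate 1 over replicate 2; dashed lines mark the medians of all tested features (0.50 and 0.38). Values rise with length in both panels (Spearman rho 0.746 and 0.767), and *DERL3* and *XBP1* lie below genes of like length on the left.

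Ratios of 2 genes within a library do not change when a library is rescaled. The trend with length was not removed from them, and some pairs are of unlike length. The lengths used were 865 nt for *SDF2L1*, 3908 nt for *HSPA5* and 6146 nt for *EDEM1*. The part of length in the ratios was not tested. The pairs were chosen after the values were seen. *XBP1* had a TPM of 0.825 and 0.850 times that of *HSPA5* in siControl and of 0.469 and 0.443 times in siCNOT4, which is 0.838 ± 0.0177 against 0.456 ± 0.0187 (SD, n = 2 each). The siControl libraries were close to each other in this ratio and the groups were apart. *HERPUD1* relative to *HSPA5* gave 0.310 and 0.268 against 0.209 and 0.210, and *SDF2L1* relative to *HSPA5* gave 0.136 and 0.239 against 0.0975 and 0.104. In the other direction, *DNAJC3* relative to *HSPA5* gave 0.0432 and 0.0313 against 0.0586 and 0.0644. The same ratio for *EDEM1* was 0.0795 and 0.0538 against 0.0995 and 0.0992. Relative to *HSPA5*, 16 of the other 33 genes, or 48.5%, were lower in both siCNOT4 libraries (35.9% of all features) and 8, or 24.2%, were higher in both (29.4%).

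Among the Derlins, *DERL3* had 0.228 and 0.290 times the TPM of *DERL2* in siControl and 0.0853 and 0.0970 times in siCNOT4. Relative to *DERL2*, 7 of the other 33 genes were lower in both siCNOT4 libraries (25.1% of all features) and 10 were higher in both (38.3%). *DERL2* relative to *DERL1* overlapped between groups, with 1.80 and 2.68 against 1.69 and 1.89. *CANX* relative to *CALR* also overlapped, with 0.833 and 0.596 against 0.954 and 0.815. *ATF6* relative to *ATF6B*, which encodes its paralogue, gave 2.41 and 1.84 against 2.45 and 1.91. With 2 libraries against 2, an exact permutation test of a single ratio cannot reach a p of 0.05, so these are given without one.

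**Figure D5:**
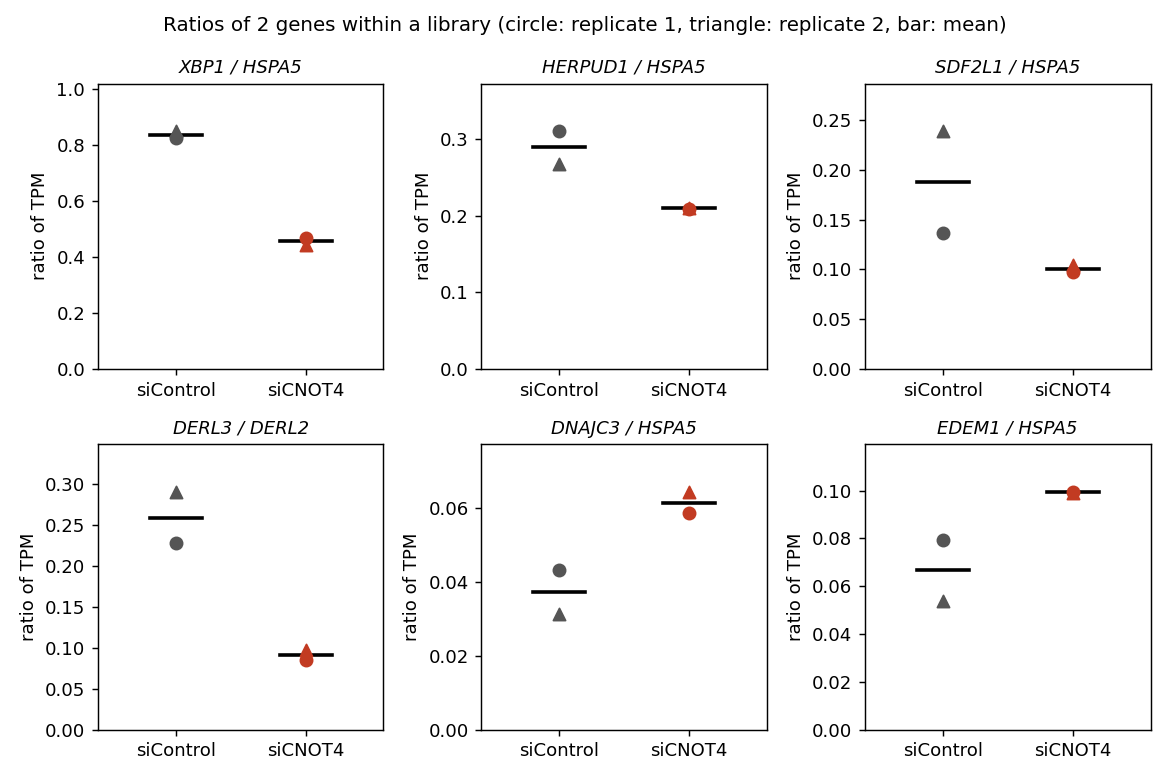
Ratio of the TPM of 2 genes within each library for 6 pairs (y axis from 0; circles replicate 1, triangles replicate 2, bars group means). *XBP1*, *HERPUD1* and *SDF2L1* relative to *HSPA5* and *DERL3* relative to *DERL2* are lower in both siCNOT4 libraries, and *DNAJC3* and *EDEM1* relative to *HSPA5* are higher.

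In TPM as deposited, most of the genes with an exact ERSE or ERSE-II, whose sequences are given above, lay below the median of all features. Of these 10 genes, *HSPA5* was called higher and 0 were called lower (11.3% and 1.3% of all features). An unadjusted limma p under 0.05 was found for 4 (42% of all features). Log2 fold changes ran from -0.31 for *XBP1* to 0.80 for *CANX* with a median of 0.31. *CANX* and *HSPA5* lay above the median of all features and the other 8 below it. The 21 genes of the promoter table without an exact match to either element had a median of 0.57, from 0.11 to 1.33. Of these, 12 lay above the median of all features. Outside the 34 genes, 3 of 19 tested genes with an exact ERSE or ERSE-II were called, all higher (11.3% of all features were called higher). The 19 genes had a median of 0.54. They include *FICD*, which adds AMP to BiP, with 5.42 and 2.72 TPM in siControl and 7.17 and 8.49 in siCNOT4 (log2 fold change 0.85, limma adjusted p 0.114). *SERP1*, a translocon-associated protein, had 79.1 and 62.7 against 63.0 and 61.1 (-0.18, limma adjusted p 0.483). Both were picked after their values were seen. The place of the 10 genes with an exact ERSE or ERSE-II depended on the scaling. After TMM scaling *CANX* (0.25) and *HSPA5* (0.02) lay above the median of all features (0.0087) and the other 8 below it. After quantile normalization that median was 0.019. Above it lay *CANX* (0.93), *CALR* (0.64), *HSP90B1* (0.59), *HSPA5* (0.54), *PDIA6* (0.30) and *HYOU1* (0.08). Below it lay *HERPUD1* (-0.21), *CRELD2* (-0.21), *XBP1* (-0.44) and *SDF2L1* (-0.67).

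Other genes of the ER were described from lists that do not overlap with the 34, beside which 11.3% of all features were called higher and 1.3% lower. Of 35 further folding and calnexin cycle genes, *CLGN* was called higher and *RCN1* and *FKBP10* lower, and the median log2 fold change was 0.30. *RCN1*, a calcium-binding protein of the ER lumen, had 250.2 and 248 TPM in siControl and 132 and 127 in siCNOT4 (-0.93, limma adjusted p 0.0250). *FKBP10*, a collagen prolyl isomerase, had 235 and 230.4 against 148 and 154 (-0.62, limma adjusted p 0.0439), and *CLGN*, a relative of calnexin, had 34.2 and 25.1 against 61.2 and 58.9 (1.01, limma adjusted p 0.0439). Of 39 further ER-associated degradation genes, *FAF2* and *NPLOC4*, both cofactors of the VCP ATPase, were called higher (1.32 and 0.86, limma adjusted p 0.0497 and 0.0454). The ubiquitin ligase *TMEM129* was called lower in the same list, with 58.18 and 58.23 TPM against 32.6 and 33.0 (-0.81, limma adjusted p 0.0459), and the list's median was 0.50. Of 33 translocon, signal peptidase and oligosaccharyltransferase genes, *SRP54*, the GTPase of the signal recognition particle, was called higher (0.97, limma adjusted p 0.0271), and the median was 0.19. After TMM scaling, *RCN1*, *FKBP10* and *TMEM129* were still called lower (limma adjusted p 0.0303, 0.0383 and 0.0314), *RAD23B*, *UBL4A* and *SSR3* were called lower as well (0.0352, 0.0352 and 0.0298), and in these 3 lists 0 genes were called higher, where 4.33% of all features were called lower and 4.45% higher.

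In the list of other ER stress transducers and KDEL receptors, 4 of 13 tested genes were called, all higher (11.3% of all features were), and 1 of them after TMM scaling (4.45%). *KDELR3*, a receptor that returns escaped chaperones to the ER, had 11.7 and 8.17 TPM in siControl and 29.7 and 32.9 in siCNOT4 (log2 fold change 1.58, limma adjusted p 0.0307), and it was also called after TMM scaling (1.06, limma adjusted p 0.0303). Its relatives *KDELR1* and *KDELR2* had 0.07 and 0.05, below the median of all features. *TMBIM6*, an ER membrane inhibitor of cell death, and *C22orf28*, the older symbol of the tRNA ligase RTCB that joins the *XBP1* exons, were called with 0.65 and 0.64, and both were near 0 after TMM scaling (0.10 and 0.09). *CREB3L1*, a membrane-bound factor related to ATF6, was the fourth, at 1.82 and 0.891 TPM against 3.64 and 4.24 (1.09, limma adjusted p 0.0484), and it was not called after TMM scaling (0.74, limma adjusted p 0.0662) or quantile normalization (0.46, 0.119).

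The PERK and ATF4 arm, which the 34 genes leave out, had more genes called lower than higher. Of 16 genes, 4 were called lower and 2 higher (1.3% and 11.3% of all features), and the median log2 fold change was -0.35, beside 0.44 for the 34 genes and 0.50 for all features. *ATF4*, the central factor of that arm, had 1005 and 1151 TPM in siControl and 358 and 352 in siCNOT4 (-1.60, limma adjusted p 0.0227). *NUPR1*, *DDIT4* and *CHAC1*, which lie downstream of ATF4, were called lower with -2.76, -1.57 and -1.53. *EIF2S1*, the phosphorylated subunit of eIF2, and *PPP1R15B*, a regulator of its phosphatase, were called higher with 0.88 and 1.42, and neither was called after TMM scaling (limma adjusted p 0.171 and 0.0683). After that scaling 7 of the 16 were called lower and 0 higher (4.33% and 4.45% of all features), with *TRIB3*, *VLDLR* and *CEBPB* added (limma adjusted p 0.0492, 0.0441 and 0.0447). Several of these ATF4 arm genes were already known to be lower when the list was written. No test of the difference between the lists was made.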

How the data were processed

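The authors deposited 1 table of TPM per library (transcript shares scaled to 1000000 over 20457 features), per the file headers. The submitters' processing notes name FastQC 0.11.2, STAR 2.5.3a, featureCounts and the build hg19. The annotation, gene lengths and strand setting are not given in the sources used here. Samples were grouped by their titles. TPM was transformed to log2(TPM + 1), which understates changes of low values, and the 14208 features whose mean TPM reached 1 were fitted with limma 3.58.1 (R 4.3.3, lmFit and eBayes with trend, 2 libraries against 2, no covariates). P-values were adjusted over all features (threshold 0.05). The limma and TMM steps were tested on simulated data with equal noise in all libraries and no trend with length. Those simulations do not cover the larger siControl spread or the length trend seen here. TMM factors were unweighted and computed on TPM. Lengths and GC content came from GENCODE 29 by symbol or RefSeq synonym (13739 features, all 34 members), with 1 transcript per gene, and the trend was fitted with splines of 4 degrees of freedom. Promoter windows came from RefSeq (GRCh38.p14). Alternatives were a pseudocount of 0.1, no filter, a minimum mean TPM of 5, TMM, quantile normalization, trend removal, the replicate number as a block, and each library left out. Values were printed in every library for called members, the 3 largest and 3 smallest fold changes and a leading gene of each role, and for most other members. From each other list, up to 3 called genes per direction were named if their mean TPM reached 5, as well as genes added after their values were seen (*RAD23B*, *UBL4A*, *SSR3*, *TRIB3*, *VLDLR*, *CEBPB*, *SEC23A*, *SEC24A*, *ERGIC1*, *CHAC1*, *CREB3L1*, *KDELR1*, *KDELR2*, *ATF6B*, *FICD*, *SERP1*). The members and lists were chosen with earlier results of these data known.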

Additional observations from a re-analysis of the deposited data

How the results depend on the processing

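Of all features tested, 1792 (12.6%) were called as deposited and 3087 (22.5%) after trend removal. There were 558 calls (3.93%) with a pseudocount of 0.1, 908 (4.6%) with no filter and 147 (1.29%) at a minimum mean TPM of 5. The share of calls that were higher was 89.7% as deposited, 50.7% after TMM scaling, 46.4% after quantile normalization and 48.7% after trend removal. Members called numbered 3 (8.82%), and 0 with the pseudocount of 0.1, with no filter and at the minimum of 5. They numbered 1 (2.94%) after TMM scaling and 6 (17.6%) after quantile normalization, where 8.78% and 15.3% of all features were called. The members' median relative to all features was -0.060, and 0.089 with no filter and 0.20 after quantile normalization. Leaving out 1 library gave 450 to 11311 calls, 0 to 31 members called and a relative median of -0.089 to 0.033, where a lone library was assumed to vary like the other group. The groups share replicate numbers, but with 2 pairs these do not show that samples were paired (correlation of same-numbered deviations 0.171). With the replicate number as a block, 3655 features (25.7%) and 11 members (32.4%) were called. Single log2 fold changes turned negative after TMM scaling for *MBTPS1* -0.035, *HSP90B1* -0.20, *HYOU1* -0.092, *DNAJC10* -0.21, *CALR* -0.074, *PDIA3* -0.30, *PDIA4* -0.15, *PDIA6* -0.28, *P4HB* -0.33, *HERPUD1* -0.44, *DERL2* -0.18, *EDEM2* -0.22, *SEC61B* -0.26, *SEC61A1* -0.33, *CRELD2* -0.45, *MANF* -0.43 and *WFS1* -0.075. They did so after quantile normalization for *DNAJC10* -0.056, *HERPUD1* -0.21, *EDEM2* -0.19, *SEC61A1* -0.041, *CRELD2* -0.21, *MANF* -0.049 and *WFS1* -0.16, and after trend removal for *MBTPS1* -0.011, *MBTPS2* -0.13, *HSP90B1* -0.23, *HYOU1* -0.039, *DNAJB11* -0.17, *DNAJC10* -0.75, *PDIA3* -0.35, *PDIA6* -0.17, *P4HB* -0.048, *HERPUD1* -0.33, *DERL1* -0.057, *DERL2* -0.35, *SEC61A1* -0.22, *CRELD2* -0.22 and *MANF* -0.090. With 1 library left out, the values that changed sign ran from -0.078 to 0.27 for *CRELD2*, -0.071 to 0.72 for *DNAJC10*, -0.095 to 0.31 for *HERPUD1*, -0.045 to 0.94 for *HYOU1*, -0.075 to 0.30 for *MANF* and -0.57 to 0.033 for *SDF2L1*. Without 1 library, fold changes that kept their sign but moved by over 1.5 times ran from 0.58 to 1.25 for *ATF6*, 0.42 to 1.18 for *CANX*, 0.36 to 0.96 for *DERL1*, 0.34 to 1.04 for *DNAJB9*, 0.56 to 1.70 for *EDEM3*, 0.62 to 2.03 for *ERN1*, 0.63 to 1.42 for *ERO1L*, 0.15 to 0.87 for *MBTPS1*, 0.11 to 1.24 for *MBTPS2*, 0.063 to 0.38 for *P4HB*, 0.16 to 0.63 for *PDIA4*, 0.053 to 0.37 for *SEC61A1*, 0.19 to 0.38 for *SEC61B*, 0.57 to 1.45 for *SEL1L* and 0.27 to 0.60 for *WFS1*. TMM scaling divided all features of a library by the same factor (0.968 and 0.706 in siControl, 1.19 and 1.23 in siCNOT4). The median log2 fold change of all features was 0.50 as deposited, 0.0087 after that scaling and 0.019 after quantile normalization. Apart from this shift, the cause of the changes in single genes was not tested. TPM gives no read totals, so what depth limits is unknown.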

Other observations

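Genes of the COPII coat and of ER export carry folded cargo from the ER to the Golgi. Of 23 tested genes, limma called 0 at an adjusted p under 0.05 (12.6% of all features were called). An unadjusted p under 0.05 was found for 12 of them (42% of all features). After TMM scaling the count of calls was also 0 (8.78% of all features were called). Their median log2 fold change was 0.66, from 0.00 for *ERGIC1* to 1.50 for *SEC24A*. *SEC24A*, a cargo-binding coat subunit, had 21.2 and 7.68 TPM in siControl and 39.4 and 37.3 in siCNOT4 (limma adjusted p 0.0661). *SEC23A*, its partner in the inner coat, had 76.4 and 27.5 against 117 and 104 (1.25, limma adjusted p 0.0910). In both genes siControl replicate 2 was far below siControl replicate 1. The median difference between the siControl libraries over the 23 genes was 0.59, against 0.38 over all features, and their median transcript length was 4215 nt, against 3579 nt. The part of length in these values was not tested.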
